A study of Mus musculus with 6 samples.

Results

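Transcripts of 35 enzymes, enzyme subunits and carriers of the tricarboxylic acid (TCA) cycle, of pyruvate entry into mitochondria and of the pentose phosphate pathway were compared between LPS-stimulated mouse macrophages with intact and with deleted Xbp1. The genes were chosen by name for their roles in these pathways, and all 35 were found among the 54660 rows of the deposited gene table. The cells were bone marrow-derived macrophages, which are grown in culture from marrow precursors, of C57BL/6 mice aged 6 to 8 weeks. In 3 libraries the mice carried floxed Xbp1 alleles (Xbp1FL/FL, called WT here), and in 3 libraries they had the genotype labelled Xbp1M-KO (called KO here), read here as a deletion in myeloid cells, which the labels do not spell out. All 6 libraries came from cells given lipopolysaccharide (LPS), an outer membrane component of Gram-negative bacteria, for 6 h, so the response to LPS itself was not analysed here. The labels give neither the Cre driver nor the deleted exons, and whether replicate libraries represent different mice is not stated. Each p-value therefore reflects spread between libraries that may be technical. The series title places the comparison in a study of XBP1 and STING signalling in macrophages during liver fibrosis.

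The TCA cycle oxidises acetyl-CoA in mitochondria and passes electrons to the respiratory chain, while its intermediates also leave as precursors for fatty acids, amino acids and itaconate. The pentose phosphate pathway branches from glycolysis at glucose 6-phosphate. Its oxidative arm makes NADPH, which macrophages use for lipid synthesis, for glutathione and for the oxidative burst, and its non-oxidative arm exchanges sugar phosphates between ribose 5-phosphate and glycolysis. LPS-activated macrophages are known for strong glycolysis, for a TCA cycle that is interrupted after citrate and after succinate, and for itaconate made from cis-aconitate. XBP1 acts in the unfolded protein response as a transcription factor, made in its active form after IRE1 splices its mRNA.

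Library totals ran from 31976748 to 42448058 counts, and same-genotype libraries differed by more than sampling noise, so none was a duplicate. Levels below are counts scaled to a common library size (CPM) on library sizes scaled by TMM, given in the order WT libraries 1, 2 and 3, then KO libraries 1, 2 and 3. Xbp1, the targeted gene (chromosome 11, 5520659 to 5525893, mm10), measured 91.2, 88.2 and 87.5 CPM in WT and 66.3, 65.5 and 65.6 CPM in KO, and the genotypes did not overlap. It fell by 0.44 on the log2 scale (SE 0.0363, edgeR adjusted p = 2.38e-08). Reads from exons outside a deleted part can still count towards this gene, so its remaining level does not measure how complete the deletion was. Of all 13080 genes tested, 31.5% rose in KO and 29.8% fell (edgeR adjusted p under 0.05). All 10 macrophage markers passed the expression filter, of which 4 rose and 5 fell. Their summed level, most of it from Lyz2, went from between 40182.5 and 41601 CPM in WT to between 22842 and 23373 CPM in KO. Of 12 neutrophil markers, 7 passed the filter and all 7 rose (summed level 206 to 224 CPM in WT, 294 to 309 CPM in KO). Of 9 stromal markers, 8 passed, of which 1 rose and 5 fell (467 to 481 CPM in WT, 241 to 249 CPM in KO). The 6 dendritic cell markers summed to between 6.72 and 7.33 CPM in WT and between 5.59 and 6.51 CPM in KO, and 2 of them passed, of which 1 rose and 1 fell. The 5 B cell and the 6 T and NK cell markers passed in no case, and each list summed to at most 0.387 CPM in any library, with Ncr1 at 0. The 5 mast cell or basophil markers summed to between 0.773 and 1.80 CPM, with Ms4a2 and Fcer1a at 0, and 1 passed and fell. The part of these marker shifts in the enzyme results was not tested.

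The enzymes did not move as a block: neighbouring steps of the same pathway changed in opposite directions, mostly by less than 1.5-fold. Of the 35 genes, all of which passed the expression filter, 11 were higher in KO, 14 were lower and 10 did not pass the test (edgeR quasi-likelihood test, Benjamini-Hochberg adjusted p under 0.05 over 13080 genes). The share of enzymes called was 71.4%, against 61.3% of all genes tested. By direction, 31.4% of the enzymes were higher against 31.5% of all genes, and 40.0% were lower against 29.8%. The role groups below hold 3 to 7 genes each, and their counts are to be read beside these shares. The median log2 fold change of the enzymes was -0.02, beside -0.00 for all genes. Of the 25 enzymes called, 21 changed by less than 1.5-fold, and the 4 beyond it were Slc25a11 and Ogdh, which rose, and Taldo1 and Suclg2, which fell. The 10 enzymes that did not pass had log2 fold changes between -0.18 and 0.37. In bulk RNA, fewer cells of a kind and less RNA per cell cannot be told apart.

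The split of the calls depended on how libraries were scaled. Removing a trend on GC content and gene length changed which enzymes were called more than it changed the split. With library totals as the only scaling, the median over all genes moved to 0.11 on the log2 scale, and 15 enzymes were higher and 10 lower, so that 60.0% of the called enzymes were higher against 44.0% under TMM scaling. On that scaling the log2 fold changes of Cs, Mdh2, Slc25a1 and Me2 were 0.34, 0.31, 0.29 and 0.33, and those of Idh3g, Dld and Pdhb were -0.22, -0.22 and -0.12, each over 1.5 times from the TMM values given below. The median transcript GC content was 51.7% (45.8% to 59.5%) for enzymes that rose and 46.8% (40.0% to 61.1%) for those that fell, so the ranges overlapped. For enzymes not called the median was 46.9%. A smooth trend of each library's counts on GC content and gene length was removed in a second fit, in which 56.3% of all genes were called (28.5% higher, 27.8% lower) and 9 enzymes were higher and 13 lower. Of the 25 enzyme calls, 19 kept their direction in that fit (8 higher, 11 lower), 6 were lost (3 higher, 3 lower) and 0 were called in the opposite direction. The part of GC content and length in the other differences was not tested further, and values from the second fit are given below where they end a call or move it by more than 1.5 times.

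**Figure D1:**
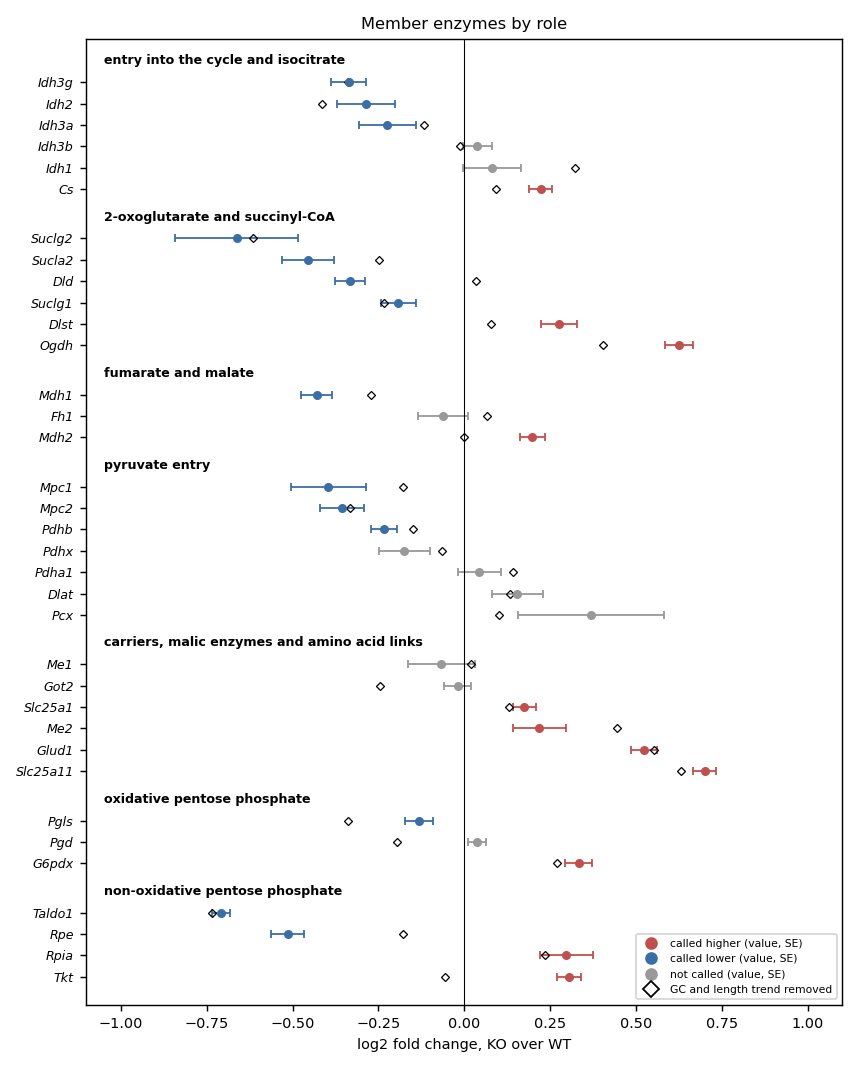
Log2 fold change, KO over WT, of each of the 35 enzymes by role (filled circles, bars show the SE; red called higher, blue called lower, grey not called) with the value after removal of the GC and length trend (open diamonds). Slc25a11 at 0.70 and Taldo1 at -0.71 stand at the ends, and their diamonds stay close, while those of Dld, Mdh2 and Tkt lie near 0.

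Enzymes of pyruvate entry either fell or did not pass the test, although 2 of them (Pdha1 and Dlat) were called higher with library totals as the only scaling. Of 7 genes, 0 were called higher, 3 were called lower (Mpc1, Mpc2 and Pdhb) and 4 did not pass, with a median log2 fold change of -0.18. MPC1 and MPC2 are the subunits of the carrier that brings pyruvate across the inner mitochondrial membrane. Because both subunits of one carrier fell together, the 250 bases before the RefSeq start of each gene are shown (GRCm38.p6, 5′ to 3′ on the gene's strand). Capitals mark CCACG, which is one end of the endoplasmic reticulum stress element, and CCAAT, its other end, on either strand. The whole element also fixes the order and spacing of its ends, which the marks leave out, so marked ends are not a match to the element. Mpc1 lies at chr17:8283537-8283786 on the plus strand and Mpc2 at chr1:165461010-165461259 on the plus strand.
Mpc1: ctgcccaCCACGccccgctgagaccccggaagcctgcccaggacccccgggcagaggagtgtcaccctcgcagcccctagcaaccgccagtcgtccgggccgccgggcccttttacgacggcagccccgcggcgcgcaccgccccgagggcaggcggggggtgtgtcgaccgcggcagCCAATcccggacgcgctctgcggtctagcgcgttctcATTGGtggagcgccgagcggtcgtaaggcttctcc
Mpc2: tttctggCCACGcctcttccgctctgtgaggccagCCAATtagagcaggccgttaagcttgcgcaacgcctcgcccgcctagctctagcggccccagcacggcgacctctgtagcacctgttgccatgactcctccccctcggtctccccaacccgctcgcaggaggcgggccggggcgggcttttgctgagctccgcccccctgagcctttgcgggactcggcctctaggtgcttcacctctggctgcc
Each window held 1 CCACG match; Mpc1 held 2 CCAAT matches and Mpc2 held 1.

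Mpc2 measured 31.9, 29.3 and 33.1 CPM in WT and 22.9, 24.1 and 26.5 CPM in KO. Every KO library lay below every WT library, and the log2 fold change of Mpc2 was -0.36 ± 0.0631 (SE, edgeR adjusted p = 1.16e-04). Mpc1 measured 14.8, 15.1 and 15.3 CPM in WT and 12.3, 13.3 and 8.89 CPM in KO. The KO libraries were again all lower, with KO library 3 well under the other two. The log2 fold change of Mpc1 was -0.40 (SE 0.109, edgeR adjusted p = 0.00475), and it was -0.23 (adjusted p = 0.0188) without KO library 3 and -0.18 (adjusted p = 0.192) after removal of the GC and length trend. Reads of Mpc1 may be divided with Mpc1-ps, an annotated pseudogene on chromosome 12 (110858565 to 110858894, mm10) that was singled out after its values were seen. It shares 99.7% identity with Mpc1 over 330 bases and held 9118 counts over the 6 libraries, against 2801 for Mpc1 itself. The Mpc1-ps row measured 51.6, 53.6 and 48.9 CPM in WT and 33.9, 34.5 and 35.5 CPM in KO, a log2 fold change of -0.57 (edgeR adjusted p = 1.59e-08) that was -0.15 (adjusted p = 0.0537) with the trend removed. With the counts of both rows summed, the log2 fold change was -0.53 (edgeR adjusted p = 2.1e-08). Most of the summed counts came from the Mpc1-ps row, and the sum was not fitted with the trend removed. The handling of reads that match both loci is not given in the sources at hand.

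The pyruvate dehydrogenase complex converts pyruvate to acetyl-CoA. Pdhb, its E1 beta subunit, fell by 0.23 on the log2 scale (SE 0.0383, edgeR adjusted p = 5.5e-05), from 68.9 ± 1.52 CPM in WT to 58.6 ± 1.05 CPM in KO (SD, n = 3); the value was -0.15 with the GC and length trend removed. Its partner Pdha1, the E1 alpha subunit, measured 18.1, 20.1 and 20.4 CPM in WT and 19.8, 20.6 and 20.1 CPM in KO, and the groups overlapped (log2 fold change 0.04, edgeR adjusted p = 0.558). Dlat, the E2 subunit, had a log2 fold change of 0.15 (edgeR adjusted p = 0.0872). Pdhx, which anchors E3 to the complex, had a value of -0.18 with adjusted p = 0.0507. Pcx, pyruvate carboxylase, which makes oxaloacetate directly from pyruvate, had the lowest level per length of the 35 genes in WT at 0.307 ± 0.0771 FPKM (fragments per kilobase of gene and library size, SD, n = 3). It measured 1.77, 1.48 and 1.06 CPM in WT and 1.62, 2.00 and 1.95 CPM in KO. The groups overlapped, and the log2 fold change was 0.37 with an SE of 0.213 (edgeR adjusted p = 0.146).

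At the entry of the cycle citrate synthase rose, while a subunit of the NAD-dependent isocitrate dehydrogenase and the mitochondrial NADP-dependent isozyme fell. Of 6 genes here, 1 rose, 3 fell and 2 did not pass, with a median log2 fold change of -0.09. Cs, citrate synthase, which joins acetyl-CoA to oxaloacetate, measured 83.1, 84.3 and 83.1 CPM in WT and 98.6, 97.3 and 96.3 CPM in KO. All KO libraries were higher, by 0.22 on the log2 scale (SE 0.0344, edgeR adjusted p = 3.05e-05), and the value was 0.09 (adjusted p = 0.0201) with the GC and length trend removed. Idh3g, a regulatory subunit of the NAD-dependent enzyme that makes 2-oxoglutarate within the cycle, measured 52.0, 51.6 and 55.4 CPM in WT and 45.5, 40.7 and 39.8 CPM in KO. Its groups did not overlap, and it fell by 0.34 (SE 0.0518, edgeR adjusted p = 2.76e-05). The catalytic subunit Idh3a had a log2 fold change of -0.22 (SE 0.083; adjusted p in edgeR = 0.027), which passed the test only narrowly. The adjusted p of Idh3a was 0.118 without WT library 3, 0.156 without KO library 2 (log2 fold change -0.15), 0.0867 in DESeq2 and 0.222 with the trend removed (log2 fold change -0.12). Idh3b, the remaining subunit, had a log2 fold change of 0.04 (edgeR adjusted p = 0.45).

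IDH1 in the cytosol and IDH2 in mitochondria make NADPH while converting isocitrate to 2-oxoglutarate. Idh2 measured 13.5, 13.3 and 13.0 CPM in WT and 9.50, 12.2 and 10.9 CPM in KO. Every KO library lay below the WT libraries, the lowest being KO library 1, and the log2 fold change was -0.29 (SE 0.0837; adjusted p in edgeR = 0.00717). Scaled by library totals alone, it was -0.17 (adjusted p = 0.0881). Idh1 measured 15.7, 13.2 and 17.5 CPM in WT and 15.7, 17.1 and 16.2 CPM in KO. The WT libraries spanned all the KO values, and the log2 fold change of 0.08 did not pass the test (edgeR adjusted p = 0.432), whereas it was 0.32 (adjusted p = 0.00286) with the GC and length trend removed.

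Around 2-oxoglutarate and succinyl-CoA all 6 genes passed the test, 2 higher and 4 lower, where 61.3% of all genes tested passed. The median log2 fold change of the 6 was -0.26. The enzyme subunits specific to 2-oxoglutarate dehydrogenase rose, and every subunit of succinyl-CoA ligase, the next enzyme, fell, but Dlst was not called with the GC and length trend removed and Suclg1 was not called on library totals. Ogdh, the E1 subunit of the 2-oxoglutarate dehydrogenase complex (chromosome 11, 6291633 to 6356642, mm10), measured 36.9, 38.8 and 38.6 CPM in WT and 60.0, 58.1 and 58.0 CPM in KO. The groups lay far apart relative to their spread (38.1 ± 1.06 against 58.7 ± 1.11 CPM, SD, n = 3). Ogdh rose by 0.62 on the log2 scale (SE 0.0415, edgeR adjusted p = 1.53e-09), and the value was 0.40 with the GC and length trend removed. Dlst, the E2 subunit, measured 41.1, 48.7 and 44.0 CPM in WT and 54.6, 53.1 and 54.3 CPM in KO. All KO libraries were higher, with a log2 fold change of 0.28 (SE 0.0528; adjusted p in edgeR = 2.41e-04), but the call was lost with the trend removed (0.08, adjusted p = 0.22). Dld, the E3 subunit shared with pyruvate dehydrogenase, fell by 0.33 (edgeR adjusted p = 4.89e-06), and its value turned to 0.03 (adjusted p = 0.499) with the trend removed.

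Succinyl-CoA ligase converts succinyl-CoA to succinate, and its alpha subunit pairs with a beta subunit that uses either ADP or GDP. Sucla2, the ADP-using beta subunit, measured 20.1, 24.7 and 24.4 CPM in WT and 17.0, 16.8 and 16.6 CPM in KO. All KO libraries were lower, and WT library 1 lay nearer to them than the other WT libraries. Sucla2 fell by 0.46 on the log2 scale (SE 0.0744, edgeR adjusted p = 5.2e-05), and the value was -0.25 with the GC and length trend removed. Suclg2, the GDP-using beta subunit, was far less abundant, with 103, 85 and 67 counts in WT and 52, 54 and 76 counts in KO (2.85, 2.56 and 2.14 CPM, and 1.56, 1.48 and 1.73 CPM). On the CPM scale the groups did not overlap, and the log2 fold change was -0.66 (SE 0.179; adjusted p in edgeR = 0.00427). A near-identical locus, Gm15163, named after its values were seen, held 75 counts against 437 for Suclg2, and with both summed the log2 fold change was -0.68. The common alpha subunit Suclg1 fell by 0.19 (edgeR adjusted p = 0.0032), a value that was -0.08 and not called with library totals as the scaling.

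The malate dehydrogenases of cytosol and mitochondria moved in opposite directions, although the rise of the mitochondrial form was lost with the GC and length trend removed. Mdh1, the cytosolic enzyme of the malate-aspartate shuttle, measured 48.6, 50.1 and 50.2 CPM in WT and 38.4, 34.7 and 37.3 CPM in KO. The KO libraries were all lower, and Mdh1 fell by 0.43 on the log2 scale (SE 0.0461, edgeR adjusted p = 4.61e-07), or by 0.27 with the GC and length trend removed. Mdh2, the mitochondrial enzyme that closes the cycle, measured 103, 108 and 105 CPM in WT and 122, 123 and 118 CPM in KO. All KO libraries were higher, with a log2 fold change of 0.20 (SE 0.0357; adjusted p in edgeR = 1.39e-04), but the value was -0.00 (adjusted p = 0.96) with the trend removed. Fh1, fumarate hydratase, had a log2 fold change of -0.06 (edgeR adjusted p = 0.485).

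**Figure D2:**
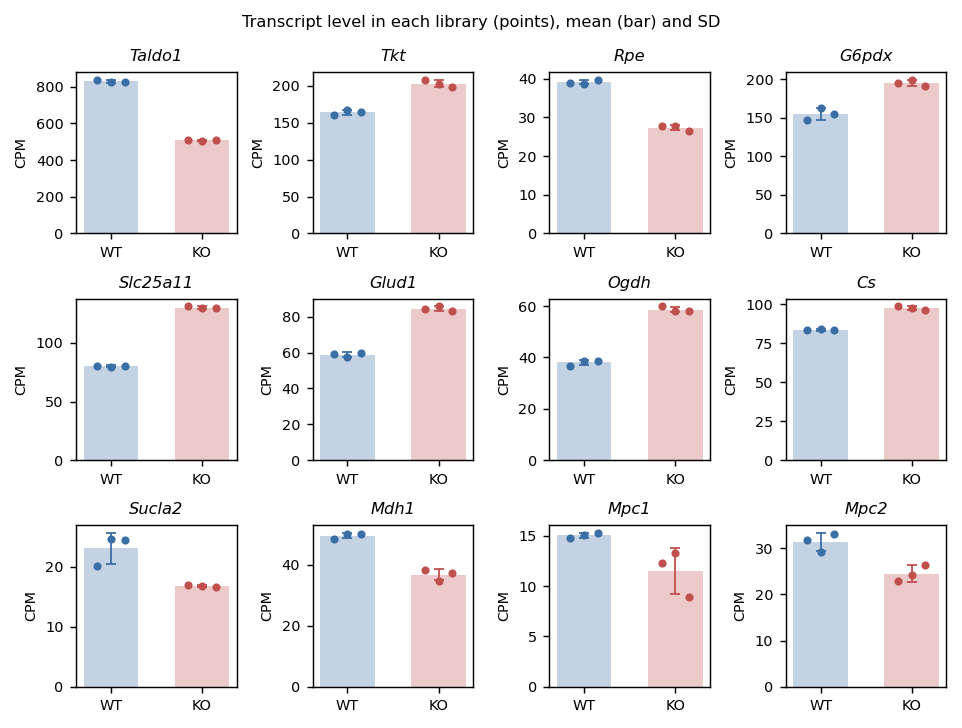
TMM-scaled level in CPM (axes start at 0) of 12 enzymes in each of the 3 WT and 3 KO libraries (points), with the mean (bar) and SD. All 12 were picked from the enzymes called, and their WT and KO points do not overlap in any panel. Among enzymes not shown, the points overlapped for some, such as Idh1, Pdha1 and Got2, and did not for others, such as Idh3g and Rpia. KO library 3 of Mpc1 lies at 8.89 CPM, below the other KO points.

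In the role group of carriers, malic enzymes and amino acid links, which leaves out the pyruvate carrier subunits Mpc1 and Mpc2, genes rose or did not pass. The exception was Got2, which was called lower with the GC and length trend removed. Of 6 genes, 4 rose, 0 fell and 2 did not pass, with a median log2 fold change of 0.20. SLC25A11 exchanges 2-oxoglutarate for malate across the inner mitochondrial membrane, and SLC25A1 exports citrate for cytosolic acetyl-CoA. The promoter windows of these carriers, which rose together, are shown as above, at chr11:70647040-70647289 on the minus strand for Slc25a11 and chr16:17928220-17928469 on the minus strand for Slc25a1.
Slc25a11: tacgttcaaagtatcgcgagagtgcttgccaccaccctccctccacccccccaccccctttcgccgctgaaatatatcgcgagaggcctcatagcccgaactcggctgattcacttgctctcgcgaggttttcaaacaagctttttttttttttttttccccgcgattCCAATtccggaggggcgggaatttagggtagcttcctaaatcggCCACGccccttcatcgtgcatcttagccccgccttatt
Slc25a1: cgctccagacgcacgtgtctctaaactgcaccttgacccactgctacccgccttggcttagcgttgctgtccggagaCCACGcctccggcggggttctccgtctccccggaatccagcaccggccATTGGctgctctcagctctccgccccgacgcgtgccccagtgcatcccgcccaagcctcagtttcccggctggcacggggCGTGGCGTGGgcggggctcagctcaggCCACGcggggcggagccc
Slc25a11 held 1 CCACG and 1 CCAAT match, and Slc25a1 held 4 CCACG matches and 1 CCAAT match.

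Slc25a11 (chromosome 11, 70644196 to 70647479, mm10) measured 80.4, 79.3 and 80.6 CPM in WT and 131, 129 and 129 CPM in KO. The libraries of each genotype were tightly grouped, at 80.1 ± 0.685 and 130.1 ± 1.03 CPM (SD, n = 3). It rose 1.62-fold, the largest rise among the 35 genes (log2 fold change 0.70, SE 0.0338, edgeR adjusted p = 3.86e-11). Slc25a11 shares 189 exon bases with Rnf167 on the opposite strand, which had 1711 counts over the 6 libraries against 22850 for Slc25a11. Glud1, glutamate dehydrogenase, which turns glutamate into 2-oxoglutarate, measured 58.9, 57.6 and 60.0 CPM in WT and 84.5, 85.8 and 83.2 CPM in KO. Every KO library was higher, by 0.52 on the log2 scale (SE 0.0373, edgeR adjusted p = 3.58e-09). Slc25a1 rose by less, from 102 ± 0.973 to 115 ± 1.70 CPM (SD, n = 3; log2 fold change 0.17, SE 0.0339, edgeR adjusted p = 2.82e-04). Got2, the mitochondrial aspartate aminotransferase, had a log2 fold change of -0.02 (edgeR adjusted p = 0.693), against -0.25 (adjusted p = 2.33e-05) with the GC and length trend removed.

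Malic enzymes make pyruvate and NADPH or NADH from malate. Me2, the mitochondrial form, measured 11.5, 10.6 and 12.8 CPM in WT and 13.9, 13.2 and 13.5 CPM in KO. The KO libraries were all higher, WT library 3 being close to them, and the log2 fold change was 0.22 (SE 0.0769; adjusted p in edgeR = 0.0216). That call was lost without WT library 1 (adjusted p = 0.0519), without WT library 2 (0.16, adjusted p = 0.105), without KO library 1 (adjusted p = 0.0653) and in DESeq2 (adjusted p = 0.0693), while the value was 0.44 with the GC and length trend removed. Me1, the cytosolic form, measured 7.27, 7.51 and 8.73 CPM in WT and 7.82, 7.69 and 6.96 CPM in KO. Its groups overlapped, and the log2 fold change was -0.07 (edgeR adjusted p = 0.567).

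In the oxidative arm of the pentose phosphate pathway the 3 enzymes each took a different course, with 1 higher, 1 lower and 1 not called and a median log2 fold change of 0.04. G6pdx, glucose 6-phosphate dehydrogenase, the rate-limiting step that makes NADPH, measured 147, 163 and 154 CPM in WT and 195, 199 and 191 CPM in KO. The KO libraries were uniformly higher, and G6pdx rose by 0.33 on the log2 scale (SE 0.0393, edgeR adjusted p = 1.48e-06). It shares 418 exon bases with Ikbkg on the opposite strand, a gene named after its values were seen, whose log2 fold change was -0.03 (adjusted p = 0.521); the use of strand in counting is not given in the sources at hand. Pgls, which hydrolyses 6-phosphogluconolactone, measured 110.2, 119 and 107 CPM in WT and 101, 103 and 102 CPM in KO. In KO all libraries were lower, but the log2 fold change was only -0.13 (SE 0.0401, edgeR adjusted p = 0.00884). It was -0.08 (adjusted p = 0.073) without WT library 2, -0.02 (adjusted p = 0.723) when scaled by library totals alone and -0.34 with the GC and length trend removed. Pgls shares 776 exon bases with Fam129c on the same strand, which had 133 counts over the 6 libraries against 22917 for Pgls. Pgd, 6-phosphogluconate dehydrogenase, the other NADPH-making step, was near 725 ± 6.03 CPM in WT and 744 ± 8.02 CPM in KO (SD, n = 3; log2 fold change 0.04, edgeR adjusted p = 0.243). The value of Pgd was 0.15 and called higher with library totals as the scaling, and -0.20 (adjusted p = 2.36e-06) with the trend removed.

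The non-oxidative arm held the largest fall of all 35 genes, in transaldolase, beside a rise in transketolase that was lost with the GC and length trend removed. All 4 genes of this arm passed the test, 2 higher and 2 lower, where 61.3% of all genes tested passed. The median log2 fold change of the 4 was -0.11. Taldo1, transaldolase, which moves dihydroxyacetone units between sugar phosphates (chromosome 7, 141392199 to 141402968, mm10), measured 839, 825 and 825 CPM in WT and 511, 506 and 507 CPM in KO. The spread within a genotype was small beside the difference (829.8 ± 7.88 against 508 ± 2.85 CPM, SD, n = 3). Taldo1 dropped to 0.612 of the WT level (log2 fold change -0.71, SE 0.0267, edgeR adjusted p = 2.04e-12), and the value was -0.73 with the GC and length trend removed. It had the highest level per length of the 35 genes in both genotypes, at 379 ± 3.56 FPKM in WT and 233 ± 1.24 FPKM in KO (SD, n = 3). Tkt, transketolase, which moves glycolaldehyde units, measured 161, 168 and 164 CPM in WT and 208, 202 and 199 CPM in KO. KO libraries were without exception higher, by 0.30 (SE 0.0343, edgeR adjusted p = 8.68e-07), but with the trend removed the value was -0.06 (adjusted p = 0.145).

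The isomerase and the epimerase that act on ribulose 5-phosphate and supply transketolase also parted. Rpe, which converts ribulose 5-phosphate to xylulose 5-phosphate, measured 38.8, 38.7 and 39.8 CPM in WT and 27.8, 27.7 and 26.6 CPM in KO. The groups lay well apart, and Rpe fell by 0.51 on the log2 scale (SE 0.0468, edgeR adjusted p = 6.58e-08), or by 0.18 with the trend removed. It shares 558 exon bases with Kansl1l on the opposite strand, a gene named after its values were seen. Kansl1l had 976 counts over the 6 libraries against 7036 for Rpe. The log2 fold change of Kansl1l was -0.32 and called lower, but -0.09 and not called with the trend removed. Rpia, which converts ribulose 5-phosphate to ribose 5-phosphate, measured 8.24, 8.14 and 8.19 CPM in WT and 9.71, 10.04 and 10.4 CPM in KO. Each KO library was higher, with a log2 fold change of 0.30 (SE 0.0768; adjusted p in edgeR = 0.00312).

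**Figure D3:**
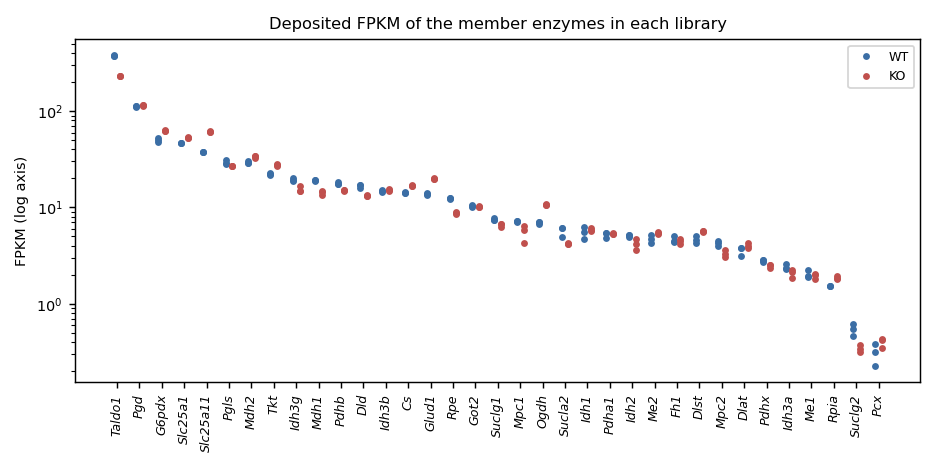
Deposited FPKM, a level per gene length, of the 35 enzymes in each library on a log axis, ordered by the WT mean. WT means run from 379 for Taldo1 to 0.307 for Pcx with a median of 7.49, and Suclg2 and Pcx are the genes below 1.

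For 7 pairs of isozymes or partner subunits, the ratio of their counts per kilobase was taken within each library, which does not depend on the scaling of libraries but does carry any GC and length trend. With 3 libraries against 3, an exact two-sided permutation test cannot give a p under 0.1, so no pair could pass. Mdh1 over Mdh2 had log2 ratios of -0.61, -0.64 and -0.59 in WT and -1.19, -1.35 and -1.19 in KO. The transcript of the cytosolic malate dehydrogenase thus went from 0.653 to 0.422 of the mitochondrial form per length, a log2 difference of -0.63, and the genotypes did not overlap (exact p = 0.1, adjusted over the 7 pairs 0.233). Idh1 over Idh2 had log2 ratios of 0.12, -0.11 and 0.34 in WT and 0.63, 0.39 and 0.48 in KO. The KO ratios were all higher, by 0.38, with the same exact p of 0.1 (adjusted 0.233). Me1 over Me2 had log2 ratios of -1.31, -1.14 and -1.20 in WT and -1.48, -1.43 and -1.60 in KO. Again the KO ratios lay apart from WT, by -0.28 (exact p = 0.1, adjusted 0.233). As the difference between fitted log2 fold changes with the GC and length trend removed, an alternative added after these values were seen, Mdh1 over Mdh2 was -0.27, Idh1 over Idh2 was 0.74 and Me1 over Me2 was -0.43. In the other pairs the genotypes overlapped. The differences were -0.21 for Suclg2 over Sucla2 (exact p = 0.7), -0.05 for Mpc1 over Mpc2 (exact p = 1), 0.36 for Pcx over Pdha1 (exact p = 0.4) and 0.03 for G6pdx over Tkt (exact p = 0.5). With the trend removed these were -0.37, 0.15, -0.039 and 0.33. For Mpc1 over Mpc2, KO library 3 had a log2 ratio of 0.24 against 0.93 and 0.96 in the other KO libraries, and the difference was 0.19 without it.

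**Figure D4:**
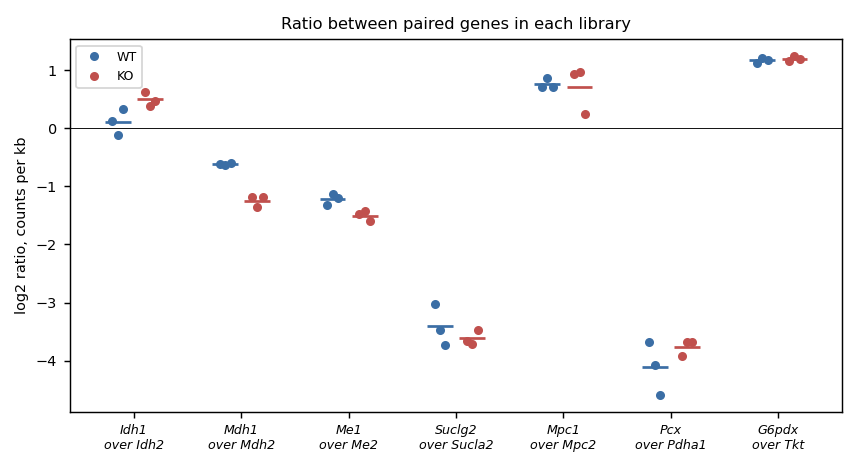
Log2 ratio of counts per kilobase between paired genes in each library (points, WT blue and KO red) with the genotype mean (line). The KO points lie apart from the WT points for Idh1 over Idh2, Mdh1 over Mdh2 and Me1 over Me2, and overlap with them in the other pairs.

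The letters of the unfolded protein response element were looked for in the 250 bases before the RefSeq start of each gene, on both strands. For some genes, among them Mpc1, Mpc2 and Slc25a11, this window lies inside the deposited span of the gene. RefSeq promoters were found for 33 of the 35 genes, Me2 and Idh3a being the ones not matched. The core TGACGTGG, a motif bound by XBP1, was in 0 of 33 windows and in 0.563% of the 32851 promoter windows of the table. CCACG, which is also contained in any TGACGTGG match when read on the other strand, was in 17 of 33 windows (51.5%), against 28.3% of all windows. It was in 4 of 10 enzymes that rose, in 7 of 13 that fell and in 6 of 10 that did not pass. CCAAT was likewise in 17 of 33 windows (51.5%), against 33.8% of all, with 4 of 10, 8 of 13 and 5 of 10 in the same groups. The windows of all promoters were not matched to those of the enzymes for expression or base composition. A match is no evidence of binding, and a missing match says only that these letters are not in this window.

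Other genes of the same pathways, 49 in number and chosen for their roles, gave 41 tested genes of which 18 were higher, 9 were lower and 14 did not pass, with a median log2 fold change of 0.20. These are 43.9% higher and 22.0% lower, against 31.5% and 29.8% of all genes. With library totals as the only scaling 24 were higher and 7 lower (median 0.32), and with the GC and length trend removed 17 were higher and 11 lower (median 0.10). Among cycle genes 4 rose and 3 fell of 7 tested. Acod1, which makes itaconate from cis-aconitate in activated macrophages, measured 2811, 2845 and 2949.7 CPM in WT and 2121, 2125 and 2106 CPM in KO. KO values were throughout lower, by 0.44 on the log2 scale (SE 0.024, edgeR adjusted p = 1.53e-10). Aco1, the cytosolic aconitase and iron regulatory protein, measured 13.7, 15.02 and 15.4 CPM in WT and 25.2, 22.7 and 22.3 CPM in KO, and it rose by 0.67 (SE 0.0687, edgeR adjusted p = 2.82e-07). Among succinate dehydrogenase subunits, Sdha and Sdhd had log2 fold changes of 0.22 and 0.12 and were called higher, and Sdhb and Sdhc had values of -0.13 and -0.25 and were called lower, but Sdhb was at -0.02 (adjusted p = 0.658) and not called on library totals. On library totals Sdha, Sdhd and Sdhc were at 0.33, 0.24 and -0.14, and Sdhd was at 0.36 with the trend removed.

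Among 15 genes around pyruvate, 8 rose, 3 fell and 4 did not pass. There were 9 higher and 3 lower on library totals. With the GC and length trend removed, and likewise in DESeq2, 6 were higher and 3 lower. The kinases that inactivate pyruvate dehydrogenase differed in direction. Pdk4 measured 0.747, 0.875 and 0.672 CPM in WT and 0.210, 0.274 and 0.250 CPM in KO, from 27, 29 and 21 counts against 7, 10 and 11. It fell by 1.62 on the log2 scale (SE 0.344, edgeR adjusted p = 6.16e-04). Pdk2 measured 0.581, 0.422 and 0.576 CPM in WT and 1.23, 1.56 and 1.25 CPM in KO, and it rose by 1.35 (SE 0.268, edgeR adjusted p = 3.52e-04). Both kinases had low counts, and their groups did not overlap. Pdk3 fell by 0.51, or by 0.23 with the GC and length trend removed. Pdk1 rose by 0.20, a call that was lost with the trend removed (0.11, adjusted p = 0.128) and whose value was 0.32 on library totals.

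Among the 11 tested carriers and amino acid enzymes, 3 rose, 1 fell and 7 did not pass. There were 8 higher and 1 lower on library totals, and 4 higher and 3 lower with the GC and length trend removed. The gene that fell was the carrier Slc25a22 (log2 fold change -0.28, edgeR adjusted p = 5.3e-06). Its value was -0.16 on library totals and -0.59 with the trend removed. Slc25a10, the dicarboxylate carrier that exchanges malate or succinate for phosphate, measured 199.8, 192 and 182 CPM in WT and 360.0, 372 and 352 CPM in KO. The 3 KO libraries were all far above WT, with a log2 fold change of 0.92 (SE 0.0378; adjusted p in edgeR = 5.79e-12). Acly, ATP citrate lyase, which turns the exported citrate into acetyl-CoA, measured 27.9, 29.0 and 28.2 CPM in WT and 53.2, 51.9 and 56.0 CPM in KO. It rose by 0.92 as well (SE 0.0458, edgeR adjusted p = 5.06e-11).

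Of 8 tested genes around the pentose phosphate pathway, 3 rose, 2 fell and 3 did not pass, against 3 higher and 1 lower on library totals. Shpk, sedoheptulokinase, which makes sedoheptulose 7-phosphate, had 14, 8 and 5 counts in WT and 39, 43 and 34 counts in KO (0.387, 0.241 and 0.160 CPM, and 1.17, 1.18 and 0.773 CPM). Its groups did not overlap, and the log2 fold change was 1.93 (SE 0.361; adjusted p in edgeR = 1.94e-04), at counts near the expression filter. Prps1, which makes phosphoribosyl pyrophosphate from ribose 5-phosphate, measured 3.71, 3.23 and 3.61 CPM in WT and 2.65, 2.16 and 1.95 CPM in KO, and it fell by 0.65 (SE 0.157, edgeR adjusted p = 0.0018). With the GC and length trend removed the value of Prps1 was -0.39 (adjusted p = 0.0472), and adding the replicate block to that fit ended the call (-0.38).

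**Figure D5:**
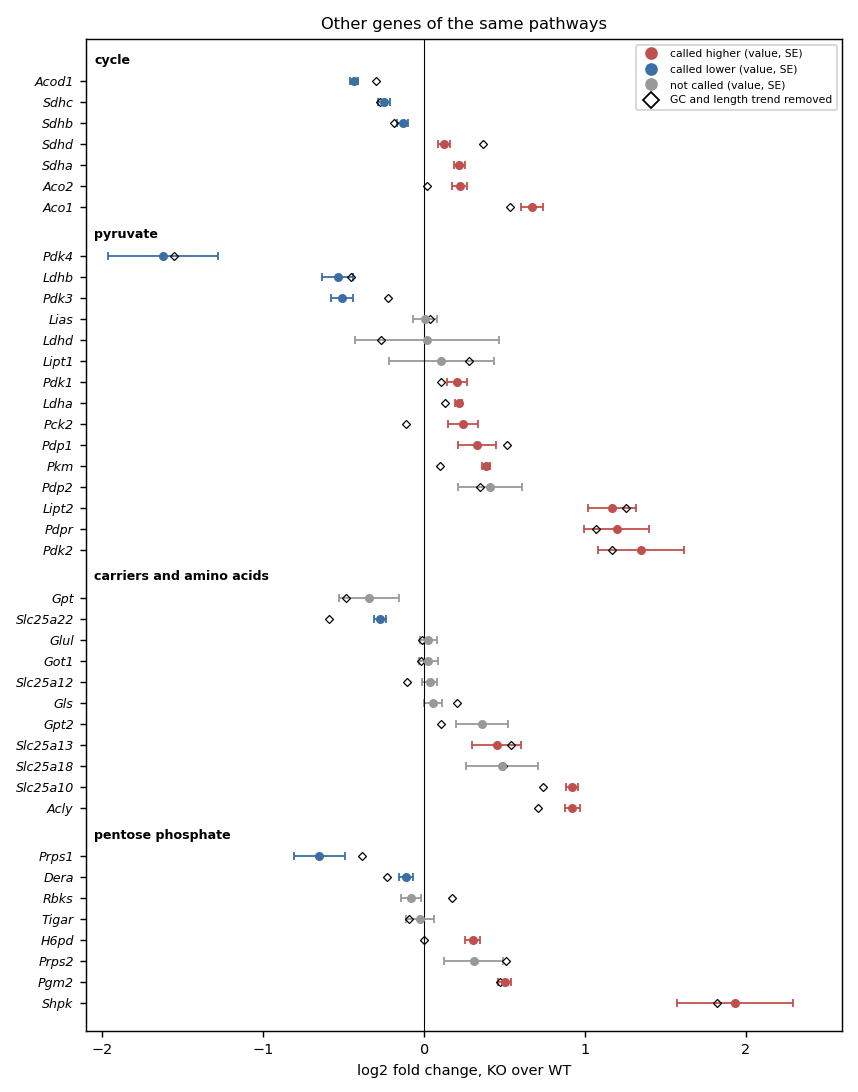
Log2 fold change, KO over WT, of the 41 tested genes of the same pathways (filled circles with SE; red called higher, blue called lower, grey not called) and the value with the GC and length trend removed (open diamonds). Shpk at 1.93 and Pdk4 at -1.62 have wide bars, and Slc25a10 and Acly at 0.92 have narrow ones.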

How the data were processed

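RNA of LPS-stimulated bone marrow-derived macrophages was sequenced in 3 WT and 3 KO libraries, made with the NEBNext Ultra kit, as the labels' protocols say. The authors deposited 1 table of 54660 gene rows, which holds raw read counts per gene, per the file headers and the values, and FPKM per library. The deposited signal columns (a mean normalized count per genotype), log2 fold changes, p-values and adjusted p-values of the authors were not used. The submitters' processing notes name Bowtie 0.12.2, mm8 and mm10 without saying what each was for. The counting tool, its use of strand and its handling of multiply matching reads are not given in the sources at hand. Of 54495 Ensembl identifiers found in GENCODE vM21 of mm10, 98.3% had identical coordinates, so positions are given on mm10. Rows with no Ensembl identifier (128) took 0.0427% to 0.0502% of the counts, depending on the library.

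Counts were tested with edgeR 4.0.16 in R 4.3.3 (quasi-likelihood test, genotype as the term, TMM scaling, default expression filter, 13080 genes left). A call required a p under 0.05 after Benjamini-Hochberg adjustment over all of them. The fit was also run on simulated data with far fewer changed genes than were called here, so that run does not check these calls. The SE was derived from the log2 fold change and its F statistic. At these depths 3 counts equal 0.0707 to 0.0938 CPM. For the second fit, a smooth trend (mgcv 1.9.3) of each library's log2 CPM (prior count 2) on GC content and gene length, with GC content from GENCODE transcripts, was subtracted as gene-wise offsets. Near-identical copies share at least 95% identity over at least 200 bases and at least 50% of the copy's transcript at another locus; 6 enzymes had one, and in 2 of them the copies held at least 10% of the gene's counts. Pair ratios were tested by an exact two-sided permutation test. Promoters and their RefSeq starts are those of GRCm38.p6. Alternatives were DESeq2 1.42.0, other scalings, no filter, each library left out, a replicate block, the trend removed and copies summed.

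The members, lists and tests were chosen with earlier results of these data known. Values in every library are given for up to 2 called rises and falls per role group, for both genes of each pair, for Xbp1, for Acod1 and for up to 2 called genes per list of other pathway genes. Same-numbered WT and KO libraries did not deviate together from their genotype means (correlations -0.037, 0.036 and 0.036), so no pairing by number was seen. This does not settle whether same-numbered libraries were handled as pairs. The result of 1 further marker list is not reported here.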

Additional observations from a re-analysis of the deposited data

How the results depend on the processing

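Counts, medians and pair ratios under alternatives other than leaving out a library were compared with those reported. Of these values, 164 were counted as close and 25 as moved. The close ones include shifts seen with library totals as the scaling. There, 15 enzymes were higher and 10 lower, against 11 and 14 reported. Over all genes tested, 5120 were higher and 2956 lower, against 4115 and 3904. The tally therefore does not show that the split of the calls held. With the GC and length trend removed, with or without the replicate block, 2 entry and isocitrate enzymes, 1 of 2-oxoglutarate and succinyl-CoA, 0 of fumarate and malate and 1 of the non-oxidative arm were higher, and 1 carrier or linked enzyme and 2 of the oxidative arm were lower. With library totals as the scaling, 2 entry, 2 pyruvate and 2 oxidative enzymes were higher, 1 entry and 0 oxidative enzymes were lower, and the median was 0.10. With no expression filter, 1 pyruvate enzyme was higher and the median was 0.0050. Pair differences with the trend removed, an alternative chosen after seeing the data, moved to 0.74 for Idh1 over Idh2, -0.27 for Mdh1 over Mdh2, -0.43 for Me1 over Me2, -0.039 for Pcx over Pdha1 and 0.33 for G6pdx over Tkt. Leaving out each library gave -0.031 to 0.016 for the median and 0 to 1 for lower oxidative enzymes. Of the single-gene values under alternatives that kept all libraries, 310 kept both their sign and their side of the test, and 18 changed sign. Of those that kept their sign, 13 lost the call and 11 gained it. Of those that changed sign with the trend removed, Dld, Mdh2 and Tkt also lost the call, and Pgd gained one. Signs turned with the trend removed, without and with the block, for Idh3b (-0.013 and -0.012), Dld (0.033 and 0.035), Fh1 (0.066 and 0.069), Mdh2 (-0.0022 in both), Me1 (0.020 and 0.019), Pgd (-0.20 in both) and Tkt (-0.058 in both). With library totals they turned for Fh1 (0.053), Me1 (0.048) and Got2 (0.10), and with no filter for Got2 (0.0050). Leaving out a library turned Idh1 (-0.018 to 0.18), Fh1 (-0.11 to 0.0036), Pdha1 (-0.0087 to 0.076) and Me1 (-0.12 to 0.016), none of which passed the test. The cause was not tested. The replicate block alone gave 11 higher and 14 lower enzymes, the counts of the fit without it, and no pairing by number was seen. With 3 libraries a genotype, differences in low genes such as Pcx, Suclg2 and Shpk are limited by counting error.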

Other observations

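Some isoforms of these enzymes were at or near 0 in every library and were not tested. Nnt, the mitochondrial transhydrogenase that makes NADPH and that C57BL/6J mice are known to lack in working form, had 3, 6 and 1 counts in the WT libraries and 0, 5 and 6 in the KO libraries; the labels give C57BL/6 with no substrain. The transketolase-like genes Tktl1 and Tktl2 had 0 counts in all 6 libraries, so that Tkt was the transketolase gene with reads. G6pd2, a retrocopy of G6pdx, had 1 count in each genotype. Me3, the other mitochondrial malic enzyme, had 5 counts in WT and 1 in KO. Ogdhl and Dhtkd1, relatives of Ogdh, had 17 and 1 counts in WT and 6 and 0 in KO.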
